A study of Mus musculus with 6 samples.

Results

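Expression of 41 genes of the G2 phase and mitosis was followed in tumour cells sorted from mouse lungs. They are cyclin, kinase, checkpoint, kinetochore, spindle and cytokinesis genes chosen by name for their known roles, with earlier results of these data known. Of the 41, 40 had a probe set annotated to their symbol alone. All 40 passed the filter on low values, out of 13090 genes that passed it among 18193 measured. Ccnb1, which encodes cyclin B1, had no such probe set and has no value here. For the 26 genes with more than 1 probe set, the brightest on average was used.

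MVT1 is a mammary tumour line from mice that carry Myc and Vegf transgenes, and it forms metastases in the lung. GFP-labelled MVT1 cells were given to FVB/N mice through a vein, and GFP-positive cells were later sorted from the lungs and their RNA was read on Affymetrix mouse expression arrays. There were 3 groups of 2 arrays. The first came from mice sampled 2 weeks after injection that had received GW2580, an inhibitor of the CSF1 receptor kinase, daily by gavage at 160 mg per kg from the end of the first week. The second came from vehicle mice at 2 weeks and the third from vehicle mice at 1 week. All groups share the FVB/N host and the 1 GFP-labelled line. Each of the vehicle groups stands for 2 mice according to the study's design; the sources used here give neither the number of mice behind the GW2580 arrays nor any age. The p-values therefore measure the spread between these arrays, which may be partly technical. Cells of the macrophage lineage are the main carriers of this receptor.

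Cells pass from G2 into mitosis when cyclin-dependent kinase 1, bound to cyclins A and B, becomes active. Kinases of the Aurora and Polo families then build the spindle, the checkpoint holds anaphase until every kinetochore is attached, and the anaphase-promoting complex with its activator CDC20 starts the separation of chromosomes by marking cyclin B and securin for destruction. The genes of these proteins are transcribed together late in the cycle: the DREAM complex holds them off in resting cells, and MuvB with B-MYB and FOXM1 turns them on. DREAM and MuvB bind the cell cycle genes homology region (CHR) of their promoters, and the factor NF-Y binds CCAAT boxes beside it. Since resting cells hold little of these RNAs, the RNAs serve as markers of proliferation in tumours. In a bulk sample of sorted cells, fewer dividing cells and less RNA per cell cannot be told apart.

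The promoters are shown because these elements are known from genes of G2 and mitosis. The genes were chosen as such genes, so a high share of the elements follows from that choice. It says nothing about the values on these arrays, and the other gene lists were not searched. The RefSeq promoter table (GRCm38.p6) held 37 promoters of 35 of the 41 genes, each from 250 bases before to 50 bases after an annotated start. Ect2 and Prc1 had 2 starts each with overlapping windows, so the same element can count in both promoters. The CHR was searched as TTTGAA or TTCGAA and the CCAAT box as CCAAT, each on both strands (TTCAAA and ATTGG on the other strand), and in Ube2c the letters CCAATTGG hold a box on each strand. A CHR match was present in 30 of 37 promoters (81.1%), against 6316 of all 32851 promoters of the table (19.2%) and 17.6% of those of protein-coding genes. A CCAAT match was present in 81.1% of the promoters of these genes and in 37.4% of all promoters, and both elements in 27 of 37 (73.0%) against 7.52%. These shares depend on the window: in the 250 bases before the start alone, a CHR match was present in 37.8% of the promoters of these genes and 17.1% of all, and both elements in 35.1% and 6.02%. Stretches of 250 bases before the start follow for genes with a CHR there, in lower case, 5′ to 3′ on the strand of the gene, with CHR and CCAAT matches in capitals. Ube2c (chr2:164769679-164769928, plus strand) had the largest difference between the 2-week and 1-week vehicle arrays, Cdk1 (chr10:69352913-69353162, minus strand) encodes the kinase of mitotic entry, Cdc20 (chr4:118437344-118437593, minus strand) the activator of the anaphase-promoting complex, and Top2a (chr11:99024190-99024439, minus strand) and Mki67 (chr7:135716380-135716629, minus strand) are the usual proliferation markers.
Ube2c: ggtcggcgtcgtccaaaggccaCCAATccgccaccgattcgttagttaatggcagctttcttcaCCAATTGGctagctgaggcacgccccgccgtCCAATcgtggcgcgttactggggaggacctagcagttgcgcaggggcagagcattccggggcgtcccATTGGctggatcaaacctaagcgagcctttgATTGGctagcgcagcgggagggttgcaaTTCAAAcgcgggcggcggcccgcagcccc
Cdk1: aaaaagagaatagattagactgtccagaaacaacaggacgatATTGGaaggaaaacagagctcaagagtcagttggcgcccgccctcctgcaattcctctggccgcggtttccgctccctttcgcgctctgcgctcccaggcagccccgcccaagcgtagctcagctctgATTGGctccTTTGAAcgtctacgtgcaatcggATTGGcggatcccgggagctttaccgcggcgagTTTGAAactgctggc
Cdc20: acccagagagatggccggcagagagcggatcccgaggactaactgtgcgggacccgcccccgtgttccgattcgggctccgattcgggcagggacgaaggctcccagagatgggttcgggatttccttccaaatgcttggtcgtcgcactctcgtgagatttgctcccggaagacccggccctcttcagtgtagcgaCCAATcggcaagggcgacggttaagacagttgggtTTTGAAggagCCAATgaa
Top2a: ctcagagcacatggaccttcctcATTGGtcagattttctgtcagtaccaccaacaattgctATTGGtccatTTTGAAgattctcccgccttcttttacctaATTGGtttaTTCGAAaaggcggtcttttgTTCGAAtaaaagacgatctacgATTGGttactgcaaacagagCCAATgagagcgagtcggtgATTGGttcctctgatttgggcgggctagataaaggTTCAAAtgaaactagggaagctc
Mki67: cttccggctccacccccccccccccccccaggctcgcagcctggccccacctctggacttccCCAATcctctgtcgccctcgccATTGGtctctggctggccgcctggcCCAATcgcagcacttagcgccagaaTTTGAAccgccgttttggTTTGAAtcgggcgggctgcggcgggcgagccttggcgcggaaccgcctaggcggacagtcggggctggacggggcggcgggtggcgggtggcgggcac

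In 18 genes a CHR match began at or after the annotated start, and in 7 genes within the 50 bases before it. In 25 of the 28 genes with any match at least 1 began within 50 bases of the start on either side. The searched window ends 50 bases after the start, so any match after the start counts as near it. This share was not taken over all promoters. The stretches below are 30 bases around matches after the start, with the CHR alone in capitals. Aurka (chr2:172370521-172370550, minus strand), Plk1 (chr7:122159453-122159482, plus strand) and Bub1 (chr2:127831828-127831857, minus strand) were among the genes called lower at 2 weeks with vehicle. Ccnb2 (chr9:70421533-70421562, minus strand) and Cdc25b (chr2:131186943-131186972, plus strand) had lower means as well but did not pass the test.
Aurka: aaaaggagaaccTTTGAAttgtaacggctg
Plk1: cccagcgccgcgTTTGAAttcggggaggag
Bub1: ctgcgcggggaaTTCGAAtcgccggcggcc
Ccnb2: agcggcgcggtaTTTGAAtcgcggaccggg
Cdc25b: ccgctgttatttTTCGAAtatataaggagg
The element stood in the promoters of Ube2c and Aurka, the genes with the largest differences, and of Cdc25b, the gene with the smallest. A match is a run of letters and shows no binding. Birc5, Nuf2, Nusap1 and Mad2l1 held neither run of letters in this window, and their differences lay between -0.998 (Birc5) and -0.55 (Mad2l1) log2 units.

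**Figure D1:**
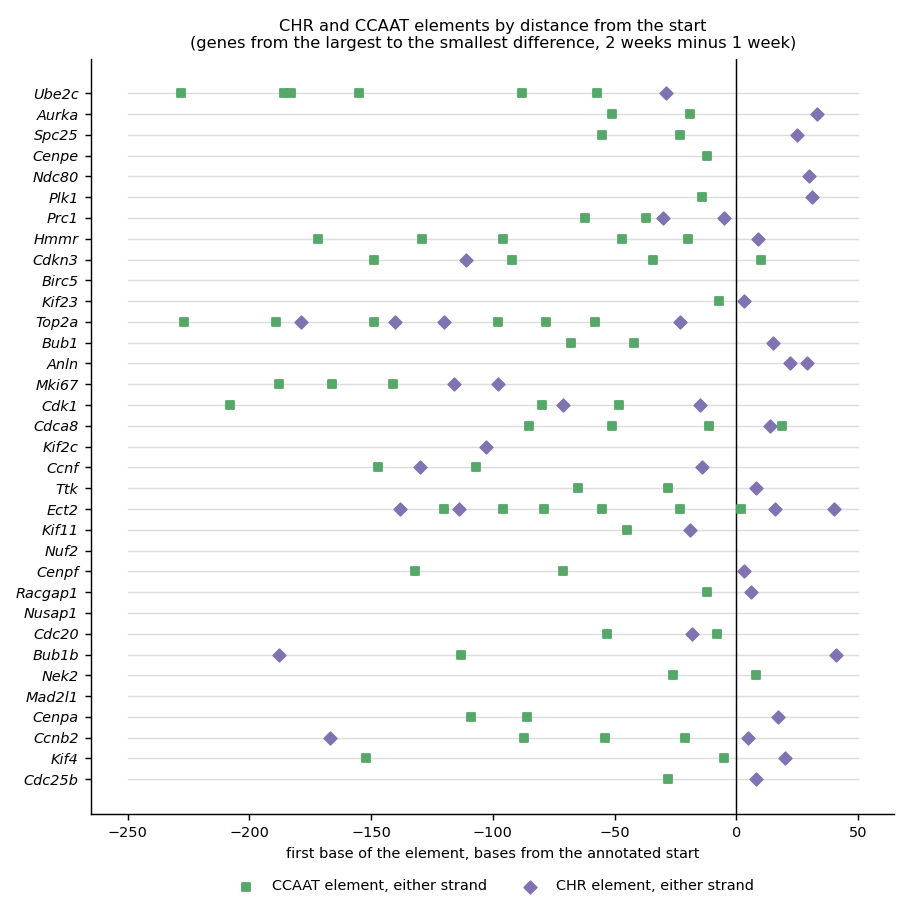
Position of CHR (diamonds) and CCAAT (squares) matches on either strand, in bases from the annotated start (vertical line), for the 34 genes with both a promoter sequence and an expression value, ordered from the largest to the smallest difference between 2 and 1 weeks; matches of both starts are drawn for Ect2 and Prc1. Of the 41 CHR matches, 28 lie within 50 bases of the start, in genes at the top and at the bottom of the order alike. These counts are per start, so an element seen from both starts of Ect2 or Prc1 is counted for each. The window ends 50 bases after the start.

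Vehicle arrays of the later and the earlier time were compared first, which asks how the tumour cells differ between 2 weeks and 1 week in the lung. Values are the authors' RMA log2 values, so that 1 unit is a 2-fold difference, and errors of differences are standard errors (SE) from limma over all 6 arrays. All 40 genes had lower means at 2 weeks and none a higher one (47.1% and 52.9% of all genes tested), with a median difference of -0.91 log2 units, 1.89-fold, against a median of 0.02 over all 13090 genes tested. Of the 40, 29 fell at an adjusted p under 0.05 and 11 did not pass; 2.71% of all genes tested were called lower and 3.74% higher, with none of the 40 among the higher ones. At an unadjusted p under 0.05, 39 of the 40 were lower (9.45% of all genes) and 0 higher (14.1%). In 39 of the 40 both 2-week arrays lay below both 1-week arrays, the exception being Cdc25b, and 25.2% of all genes showed such a separation downward. The adjusted p of the 29 lay between 0.0102 and 0.0442. Fitted on the 4 vehicle arrays alone, without the spread between the GW2580 arrays, 34 of the 40 passed. The count of calls depended on single arrays: 0 passed without replicate 1 of the 1-week group, 10 without its replicate 2, and 3 without either replicate of the 2-week vehicle group, while all 40 differences stayed below 0 in each of these fits and the median lay between -1.02 and -0.83.

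**Figure D2:**
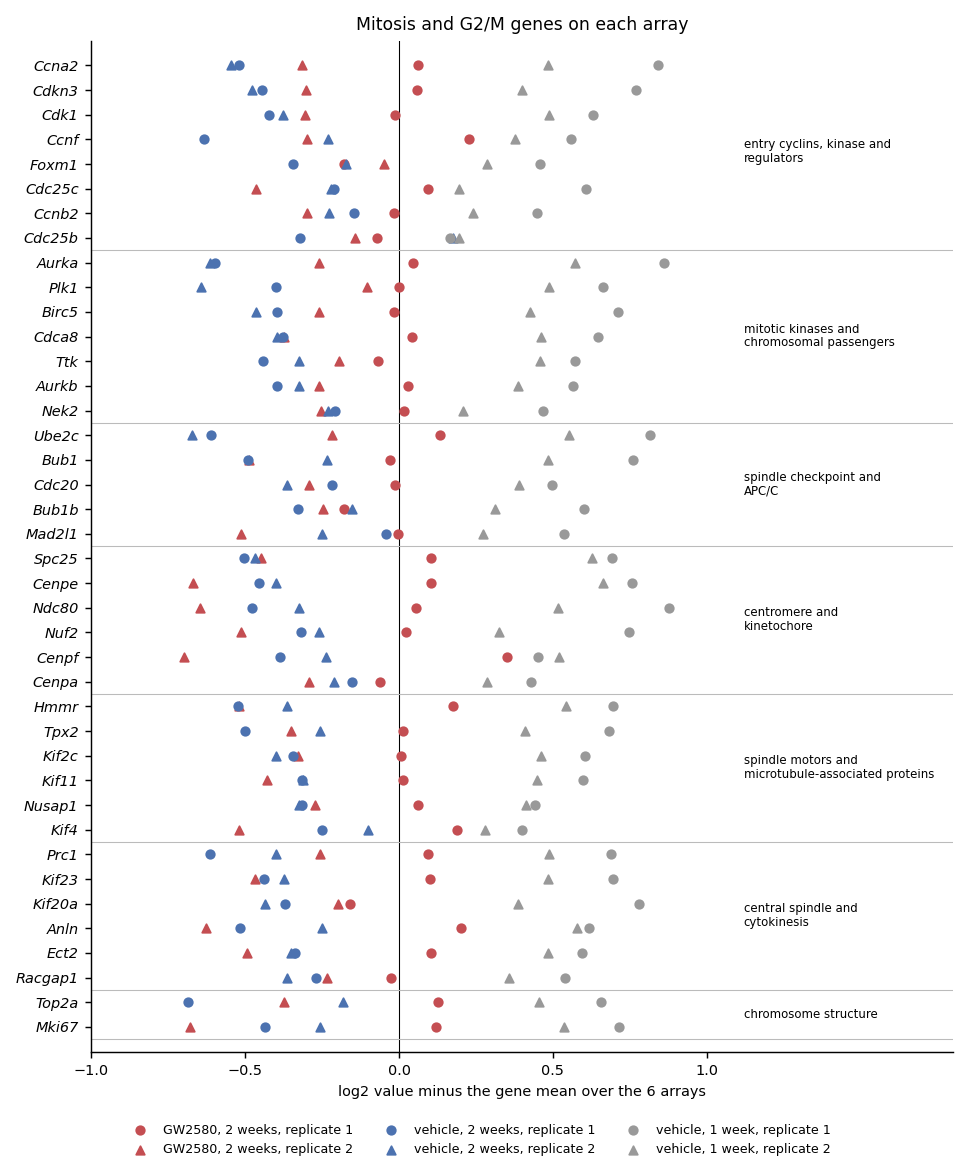
Log2 value of each of the 40 genes on each array minus the gene's mean over the 6 arrays, with genes in rows grouped by role, colours for the groups and circles and triangles for replicates 1 and 2. The 1-week vehicle arrays (grey) lie to the right in every row but that of Cdc25b, where 1 blue point meets them. The 2-week vehicle arrays (blue) and the GW2580 arrays (red) lie to their left. Of the 2 red points, replicate 1 is to the right of replicate 2 in 39 of 40 rows. In some rows, such as Mki67 and Cenpf, replicate 2 lies left of both blue points. In others, such as Kif20a, the red points nearly meet.

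Among cyclins, their kinase and their regulators, 5 of 8 fell at 2 weeks and 3 did not pass (median -0.77). Ccna2, which encodes cyclin A2, the cyclin of S phase and G2, read 10.36 and 9.98 with GW2580, 9.78 and 9.75 with vehicle at 2 weeks, and 11.14 and 10.78 with vehicle at 1 week. With GW2580, Ccna2 lay between the vehicle groups on each array. Ccna2 fell by 1.20 (SE 0.18, adjusted p 0.0157) in vehicle mice at 2 weeks. Cdk1 had values of 10.76 and 10.47 on the GW2580 arrays, 10.35 and 10.39 on the 2-week vehicle arrays, and 11.40 and 11.26 on the 1-week vehicle arrays. Cdk1 lay between the vehicle groups on the 2 GW2580 arrays. Cdk1 fell by 0.96 (SE 0.14, adjusted p 0.016) in vehicle mice at 2 weeks. Cdkn3, which encodes a phosphatase that acts on cyclin-dependent kinases, was at 8.16 and 7.80 with GW2580, 7.66 and 7.62 with vehicle at 2 weeks, and 8.87 and 8.50 with vehicle at 1 week. Both GW2580 values of Cdkn3 lay between the vehicle groups. Cdkn3 fell by 1.05 (SE 0.17, adjusted p 0.0214) in vehicle mice at 2 weeks. Foxm1, the forkhead factor gene, read 7.64 and 7.77 on the GW2580 arrays, 7.47 and 7.65 on the 2-week vehicle arrays, and 8.28 and 8.11 on the 1-week vehicle arrays. The first GW2580 array lay within the range of the 2-week vehicle arrays for Foxm1, and the second between the vehicle groups. The difference of Foxm1 between the vehicle groups, -0.63 (SE 0.14, adjusted p 0.0381), was the smallest of the 29 called. The cyclin F gene Ccnf fell by 0.90 (SE 0.21, adjusted p 0.0442). Ccnb2, for cyclin B2, had values of 10.47 and 10.19 with GW2580, 10.34 and 10.26 with vehicle at 2 weeks, and 10.94 and 10.73 with vehicle at 1 week. Ccnb2 lay between the vehicle groups on GW2580 replicate 1 and below both 2-week vehicle arrays on replicate 2. The groups did not overlap, but the difference of -0.53 (SE 0.15, adjusted p 0.0737) did not pass. Cdc25b, for a phosphatase that activates the kinase, was at 8.42 and 8.35 on the GW2580 arrays, 8.18 and 8.67 on the 2-week vehicle arrays, and 8.66 and 8.69 on the 1-week vehicle arrays. Both GW2580 values of Cdc25b lay within the range of the 2-week vehicle arrays. Replicate 2 of the 2-week vehicle group lay between the 1-week values, and Cdc25b had the smallest difference of the 40, -0.25 (SE 0.17, adjusted p 0.429). Its relative Cdc25c differed by -0.62 (SE 0.21, adjusted p 0.122).

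Of 7 genes of mitotic kinases and the chromosomal passenger complex, 6 fell and 1 did not pass (median -0.94). Aurka, for the kinase of spindle poles, read 9.40 and 9.09 with GW2580, 8.75 and 8.74 with vehicle at 2 weeks, and 10.21 and 9.93 with vehicle at 1 week. With GW2580, Aurka lay between the vehicle groups on each array. Aurka fell by 1.32 (SE 0.16, adjusted p 0.0102) in vehicle mice at 2 weeks, and every 2-week value lay below both 1-week values. Plk1, for Polo-like kinase 1, which acts from mitotic entry to cytokinesis, had values of 9.76 and 9.66 on the GW2580 arrays, 9.36 and 9.12 on the 2-week vehicle arrays, and 10.43 and 10.25 on the 1-week vehicle arrays. Plk1 lay between the vehicle groups on the 2 GW2580 arrays. Plk1 fell by 1.10 (SE 0.14, adjusted p 0.0115) in vehicle mice at 2 weeks. Aurkb, for the kinase of the passenger complex, was at 8.54 and 8.25 with GW2580, 8.11 and 8.18 with vehicle at 2 weeks, and 9.07 and 8.89 with vehicle at 1 week. Both GW2580 values of Aurkb lay between the vehicle groups. Aurkb fell by 0.84 (SE 0.15, adjusted p 0.0243) in vehicle mice at 2 weeks. Birc5, for survivin, a subunit of that complex, read 10.24 and 9.99 on the GW2580 arrays, 9.86 and 9.79 on the 2-week vehicle arrays, and 10.97 and 10.68 on the 1-week vehicle arrays. With GW2580, Birc5 lay between the vehicle groups on each array. Its difference between the vehicle groups was -0.998 log2 units (SE 0.15) and passed. Cdca8, for borealin of the same complex, fell by 0.94 (SE 0.16, adjusted p 0.0243), so all 3 passenger genes among the 40 passed. Ttk, for the checkpoint kinase MPS1, fell by 0.90 (SE 0.13, adjusted p 0.0139). Nek2, for a kinase of centrosome separation, had values of 8.21 and 7.95 with GW2580, 7.99 and 7.97 with vehicle at 2 weeks, and 8.67 and 8.41 with vehicle at 1 week. Nek2 lay between the vehicle groups on GW2580 replicate 1 and below both 2-week vehicle arrays on replicate 2. Its groups did not overlap, and the difference of -0.56 (SE 0.15, adjusted p 0.066) did not pass.

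Of 5 genes of the spindle checkpoint and of the anaphase-promoting complex (APC/C), 4 fell and 1 did not pass (median -0.73). Ube2c, which encodes the ubiquitin-conjugating enzyme that works with the APC/C, was at 11.33 and 10.98 on the GW2580 arrays, 10.59 and 10.53 on the 2-week vehicle arrays, and 12.01 and 11.75 on the 1-week vehicle arrays. Both GW2580 values of Ube2c lay between the vehicle groups. Its fall of 1.32 (SE 0.16, adjusted p 0.0102) between the vehicle groups was the largest of the 40, 2.50-fold. Cdc20 read 11.15 and 10.87 with GW2580, 10.95 and 10.80 with vehicle at 2 weeks, and 11.66 and 11.56 with vehicle at 1 week. The first GW2580 array lay between the vehicle groups for Cdc20, and the second within the range of the 2-week vehicle arrays. Cdc20 fell by 0.73 (SE 0.14, adjusted p 0.0323) in vehicle mice at 2 weeks. Bub1, for a checkpoint kinase of the kinetochore, had values of 9.12 and 8.66 on the GW2580 arrays, 8.66 and 8.91 on the 2-week vehicle arrays, and 9.91 and 9.63 on the 1-week vehicle arrays. Bub1 lay between the vehicle groups on GW2580 replicate 1 and within the range of the 2-week vehicle arrays on replicate 2. Bub1 fell by 0.98 (SE 0.19, adjusted p 0.0307) in vehicle mice at 2 weeks. Bub1b, for the checkpoint protein BUBR1, fell by 0.70 (SE 0.14, adjusted p 0.0357); its dimmest probe set, with a mean of 5.10 near the filter, differed by 0.19. Mad2l1, for the checkpoint protein MAD2, was at 10.45 and 9.94 with GW2580, 10.41 and 10.20 with vehicle at 2 weeks, and 10.99 and 10.72 with vehicle at 1 week. For Mad2l1, GW2580 replicate 1 lay between the vehicle groups and replicate 2 below both 2-week vehicle arrays. The difference of -0.55 (SE 0.19, adjusted p 0.131) did not pass.

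Of 6 centromere and kinetochore genes, 3 fell and 3 did not pass (median -0.96). Spc25, for a subunit of the NDC80 complex that holds microtubules, read 8.88 and 8.33 on the GW2580 arrays, 8.27 and 8.31 on the 2-week vehicle arrays, and 9.47 and 9.40 on the 1-week vehicle arrays. With GW2580, Spc25 lay between the vehicle groups on each array. Spc25 fell by 1.15 (SE 0.18, adjusted p 0.0193) in vehicle mice at 2 weeks. Ndc80, for another subunit of that complex, fell by 1.10 (SE 0.23, adjusted p 0.0367), while its partner Nuf2 differed by -0.83 (SE 0.21, adjusted p 0.0563) and did not pass. Cenpe, for a kinetochore motor that aligns chromosomes, had values of 9.22 and 8.45 with GW2580, 8.66 and 8.72 with vehicle at 2 weeks, and 9.87 and 9.78 with vehicle at 1 week. Cenpe lay between the vehicle groups on GW2580 replicate 1 and below both 2-week vehicle arrays on replicate 2. Cenpe fell by 1.14 (SE 0.23, adjusted p 0.0332) in vehicle mice at 2 weeks. Cenpf, for a large kinetochore protein of late G2, was at 9.57 and 8.52 on the GW2580 arrays, 8.83 and 8.98 on the 2-week vehicle arrays, and 9.67 and 9.74 on the 1-week vehicle arrays. For Cenpf, GW2580 replicate 1 lay between the vehicle groups and replicate 2 below both 2-week vehicle arrays. The 2 GW2580 arrays were far apart, and this spread enters the SE of the gene; the difference of -0.80 (SE 0.29, adjusted p 0.146) did not pass. Cenpa, for the histone H3 variant that marks centromeres, read 10.31 and 10.08 with GW2580, 10.22 and 10.16 with vehicle at 2 weeks, and 10.80 and 10.66 with vehicle at 1 week. The first GW2580 array lay between the vehicle groups for Cenpa, and the second below both 2-week vehicle arrays. The difference of -0.54 (SE 0.14, adjusted p 0.0563) did not pass.

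Of 6 genes of spindle motors and microtubule-associated proteins, 5 fell and 1 did not pass (median -0.87). Hmmr, for a spindle assembly factor also known as a hyaluronan receptor, had values of 9.57 and 8.87 on the GW2580 arrays, 8.87 and 9.03 on the 2-week vehicle arrays, and 10.09 and 9.93 on the 1-week vehicle arrays. Hmmr lay between the vehicle groups on GW2580 replicate 1 and within the range of the 2-week vehicle arrays on replicate 2. Hmmr fell by 1.06 (SE 0.22, adjusted p 0.0348) in vehicle mice at 2 weeks. Tpx2, for the activator of Aurora A, was at 9.45 and 9.09 with GW2580, 8.94 and 9.19 with vehicle at 2 weeks, and 10.13 and 9.85 with vehicle at 1 week. For Tpx2, GW2580 replicate 1 lay between the vehicle groups and replicate 2 within the range of the 2-week vehicle arrays. Tpx2 fell by 0.93 (SE 0.17, adjusted p 0.0295) in vehicle mice at 2 weeks. Kif11, for the motor that pushes spindle poles apart, read 7.80 and 7.35 on the GW2580 arrays, 7.47 and 7.47 on the 2-week vehicle arrays, and 8.38 and 8.23 on the 1-week vehicle arrays. The first GW2580 array lay between the vehicle groups for Kif11, and the second below both 2-week vehicle arrays. Kif11 fell by 0.83 (SE 0.16, adjusted p 0.0329) in vehicle mice at 2 weeks. Kif2c, for a microtubule-depolymerising kinesin, and Nusap1, for a microtubule-bundling protein, fell by 0.90 (SE 0.15, adjusted p 0.0207) and by 0.75 (SE 0.14, adjusted p 0.0307). Kif4, for a chromosome-bound kinesin, had values of 8.14 and 7.43 with GW2580, 7.70 and 7.85 with vehicle at 2 weeks, and 8.35 and 8.23 with vehicle at 1 week. Kif4 lay between the vehicle groups on GW2580 replicate 1 and below both 2-week vehicle arrays on replicate 2. The difference of -0.52 (SE 0.22, adjusted p 0.201) did not pass.

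Of 6 genes of the central spindle and cytokinesis, 5 fell and 1 did not pass (median -0.98). Prc1, which encodes the microtubule crosslinker of the central spindle, was at 10.02 and 9.67 on the GW2580 arrays, 9.31 and 9.52 on the 2-week vehicle arrays, and 10.61 and 10.41 on the 1-week vehicle arrays. Both GW2580 values of Prc1 lay between the vehicle groups. Prc1 fell by 1.09 (SE 0.16, adjusted p 0.016) in vehicle mice at 2 weeks. Kif20a, for a kinesin that brings the passenger complex to the midzone, read 8.69 and 8.66 with GW2580, 8.48 and 8.42 with vehicle at 2 weeks, and 9.64 and 9.24 with vehicle at 1 week. With GW2580, Kif20a lay between the vehicle groups on each array. Kif20a fell by 0.99 (SE 0.15, adjusted p 0.0183) in vehicle mice at 2 weeks. Kif23, for the kinesin of centralspindlin, had values of 9.03 and 8.46 on the GW2580 arrays, 8.49 and 8.55 on the 2-week vehicle arrays, and 9.62 and 9.41 on the 1-week vehicle arrays. Kif23 lay between the vehicle groups on GW2580 replicate 1 and below both 2-week vehicle arrays on replicate 2. Kif23 fell by 1.00 (SE 0.19, adjusted p 0.0309) in vehicle mice at 2 weeks. Racgap1, for the other subunit of centralspindlin, was at 9.38 and 9.17 with GW2580, 9.14 and 9.04 with vehicle at 2 weeks, and 9.95 and 9.76 with vehicle at 1 week. Both GW2580 values of Racgap1 lay between the vehicle groups. The difference between the vehicle groups, -0.77 (SE 0.14, adjusted p 0.026), was the smallest in this role and was called, while a second bright probe set of Racgap1 differed by -0.30. Ect2, for the exchange factor that switches on RhoA at the cleavage site, fell by 0.88 (SE 0.19, adjusted p 0.0389). Anln, for the actin-binding scaffold of the contractile ring, read 11.01 and 10.18 on the GW2580 arrays, 10.29 and 10.56 on the 2-week vehicle arrays, and 11.43 and 11.39 on the 1-week vehicle arrays. The first GW2580 array lay between the vehicle groups for Anln, and the second below both 2-week vehicle arrays. All 2-week vehicle values lay below the 1-week values, but the difference of -0.98 (SE 0.25, adjusted p 0.0567) did not pass.

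The 2 genes of chromosome structure are the best-known proliferation markers. Mki67, which encodes the Ki-67 coat protein of mitotic chromosomes, had values of 10.43 and 9.64 with GW2580, 9.88 and 10.06 with vehicle at 2 weeks, and 11.03 and 10.85 with vehicle at 1 week. Mki67 lay between the vehicle groups on GW2580 replicate 1 and below both 2-week vehicle arrays on replicate 2. Its difference of -0.97 (SE 0.24, adjusted p 0.0537) did not pass, although the 2-week and 1-week vehicle values did not overlap. The 2 GW2580 values of Mki67 were 0.80 apart, and this spread enters the SE. Top2a, for the topoisomerase that untangles sister chromatids, was at 11.06 and 10.56 on the GW2580 arrays, 10.25 and 10.75 on the 2-week vehicle arrays, and 11.59 and 11.39 on the 1-week vehicle arrays. For Top2a, GW2580 replicate 1 lay between the vehicle groups and replicate 2 within the range of the 2-week vehicle arrays. Top2a fell by 0.99 (SE 0.22, adjusted p 0.0404) in vehicle mice at 2 weeks. On the 2-week vehicle arrays its values were 0.50 log2 units apart, the widest gap of the 40 genes in that group.

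Among other probe sets of these genes 32 in 21 genes were above the filter, and 31 of the 32 were lower at 2 weeks, all but the dimmest of Bub1b.

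**Figure D3:**
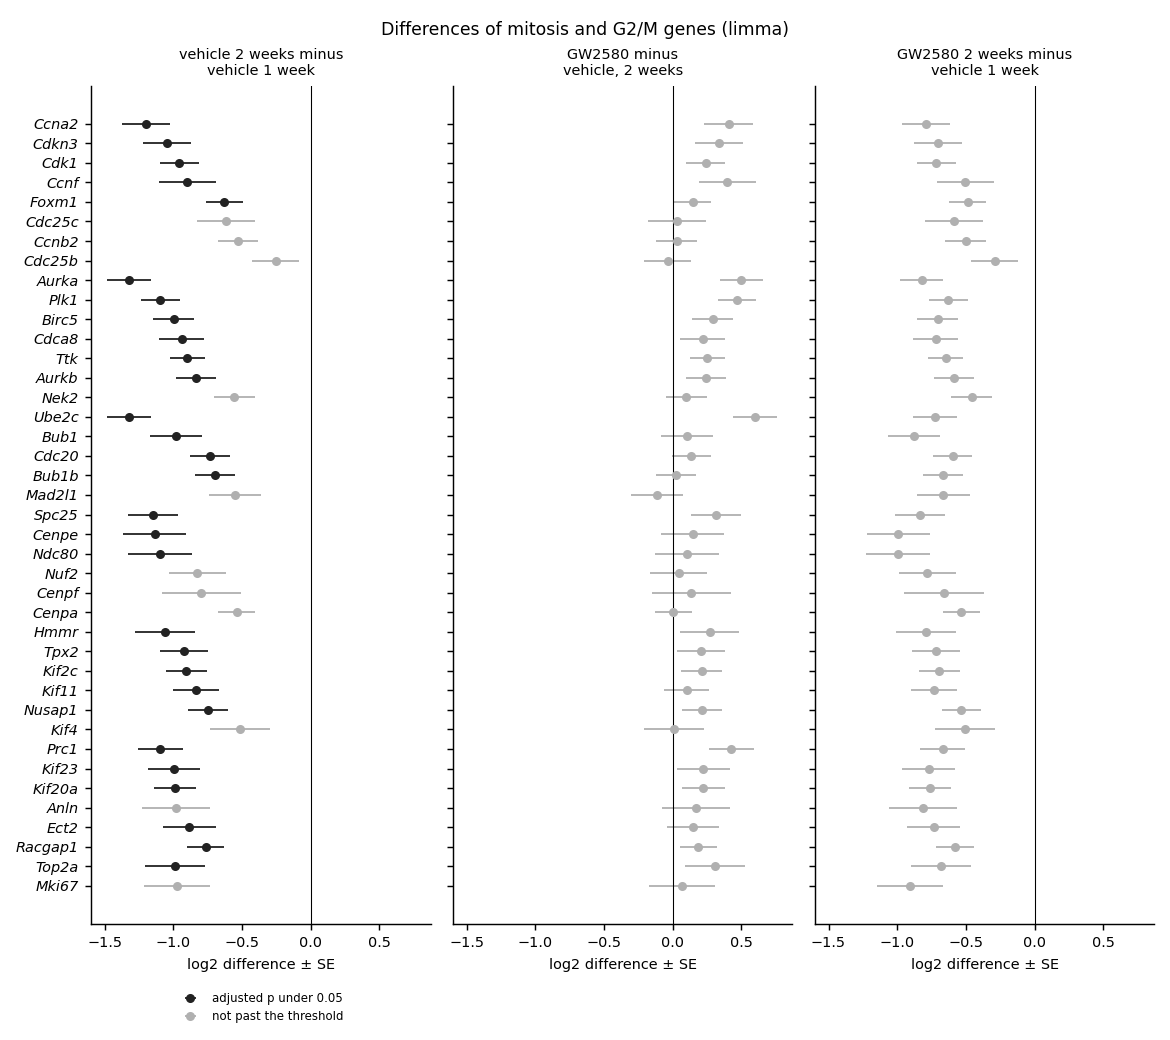
Log2 difference with its SE for the 40 genes (rows, by role) in the comparisons of 2 with 1 week, of GW2580 with vehicle at 2 weeks and of GW2580 with vehicle at 1 week; black points passed an adjusted p of 0.05. On the left all points lie below 0 and 29 are black, in the middle 38 of 40 lie above 0 and none is black, and on the right all lie below 0 and none is black.

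Arrays from GW2580 and vehicle mice at 2 weeks were compared next, which asks whether the tumour cells differ when the CSF1 receptor is inhibited. No gene of the 40 passed with limma in either direction (smallest adjusted p 0.127), where 0.0688% of all genes tested were called higher and 0.298% lower; at an unadjusted p under 0.05, 5 were higher and 0 lower, where 5.36% of all genes tested were higher and 12.6% lower at that level. The means of 38 genes were higher with GW2580 and 2, Mad2l1 and Cdc25b, were lower; 41.7% of all genes tested had higher means and 58.3% lower ones. The median difference was 0.20 log2 units, against -0.05 over all genes tested. In 16 of 40 genes both GW2580 arrays lay above both 2-week vehicle arrays and in 0 below, and 18.3% of all genes tested were separated upward and 31.5% downward. The 5 genes were Ube2c at 0.60 (SE 0.16), Plk1 at 0.47 (SE 0.14), Aurka at 0.50 (SE 0.16), Prc1 at 0.43 (SE 0.16) and Ccna2 at 0.41 (SE 0.18). By role the median was 0.25 for mitotic kinases and passengers, where 6 of 7 genes were separated upward, and 0.12 for centromere and kinetochore genes, where 1 of 6 was. For Mki67 the difference was 0.07 (SE 0.24), for Cdk1 0.24 (SE 0.14), for Top2a 0.31 (SE 0.22) and for Foxm1 0.14 (SE 0.14). On other probe sets above the filter, the sign was opposite to that of the probe set used in 8 genes: the other probe set gave -0.24 for Racgap1, -0.15 for Bub1b, -0.14 for Foxm1, -0.08 for Kif23, -0.07 for Nek2, -0.04 for Cdc25c and -0.01 for both Cdc20 and Cenpe.

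The size of this difference depended on replicate 1 of the GW2580 group. Without it the median over the 40 genes was 0.0035, with 20 genes above and 20 below 0, and without replicate 2 the median was 0.39, with 39 genes above 0 and 24 at an unadjusted p under 0.05, none of them past the adjusted threshold (smallest adjusted p 0.0727). Replicate 1 read above replicate 2 in 39 of 40 genes, with Foxm1 the exception, by a median of 0.36 log2 units, while over all genes tested it was higher in 39.3% and the median gap was -0.07. The gap was widest for Cenpf, at 1.05, and was 0.83 for Anln, 0.80 for Mki67, 0.77 for Cenpe and 0.04 for Kif20a. In the 1-week vehicle group replicate 1 also read higher in 38 of 40 genes, by a median of 0.18, where 45.1% of all genes were higher. In the 2-week vehicle group replicate 1 was higher in 18 of 40, with a median of -0.04, where 42.4% of all genes were.

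**Figure D4:**
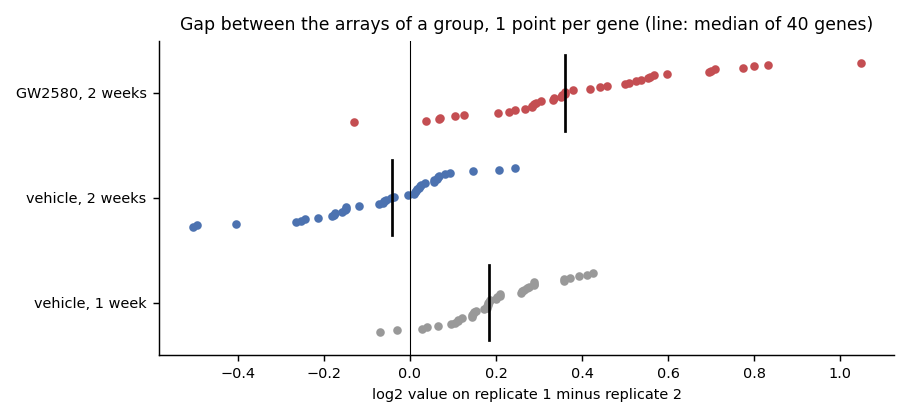
Value on replicate 1 minus value on replicate 2, in log2 units, for each of the 40 genes (points, sorted upward) in each group, with the median as a black line. The points lie mostly to the right of 0 in the GW2580 group (median 0.36) and the 1-week vehicle group (0.18) and on both sides of it in the 2-week vehicle group (-0.04).

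GW2580 at 2 weeks was also set against vehicle at 1 week; this comparison shares arrays with each of the others. All 40 genes had lower means in GW2580 and none a higher one (54.2% and 45.8% of all genes tested), with a median of -0.70 log2 units against -0.02 over all genes tested. In all 40 both GW2580 arrays lay below both 1-week arrays, a separation seen in 27.9% of all genes (18.8% the other way). With limma 0 passed (smallest adjusted p 0.0709), where 0.153% of all genes tested were called lower and 0.359% higher, and 38 were lower and 0 higher at an unadjusted p under 0.05, where 10.4% and 6.64% of all genes were. On other probe sets the sign was opposite for 1 of Bub1b (0.04) and 1 of Cenpf (0.13). The differences ran from -0.99 (SE 0.23) for Ndc80 and -0.99 (SE 0.23) for Cenpe to -0.29 (SE 0.17) for Cdc25b. Mki67 differed by -0.90 (SE 0.24), Aurka by -0.82 (SE 0.16), Cdk1 by -0.72 (SE 0.14) and Ube2c by -0.72 (SE 0.16). Without replicate 1 of GW2580, 11 genes passed and the median was -0.88, and without its replicate 2 none passed and the median was -0.51.

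As a single level per array, the mean of the 40 log2 values, each centred on its gene, was 0.04 and -0.37 on the GW2580 arrays, -0.39 and -0.33 on the 2-week vehicle arrays, and 0.62 and 0.42 on the 1-week vehicle arrays. Replicate 2 of GW2580 stood among the 2-week vehicle arrays, and replicate 1 between them and the 1-week arrays. Fibroblast and smooth muscle markers had a similar order of arrays: their centred level over all 8 markers was 0.13 and -0.58 on the GW2580 arrays, -0.30 and -0.25 on the 2-week vehicle arrays, and 0.95 and 0.05 on the 1-week vehicle arrays. The log2 of their summed linear level was 11.93 and 10.37 with GW2580, 10.69 and 10.79 with vehicle at 2 weeks, and 12.70 and 11.48 with vehicle at 1 week. Of the 8 markers 7 had lower means at 2 weeks with vehicle and none passed with limma, 4 being lower at an unadjusted p under 0.05. Over all genes tested 47.1% had lower means, and 9.45% were lower at that level. Col3a1, a fibrillar collagen gene, read 10.90 and 8.98 with GW2580, 9.29 and 9.49 with vehicle at 2 weeks, and 11.68 and 10.51 with vehicle at 1 week. The part of these cells in the result was not tested.

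Mammary and simple epithelium markers, of which 6 of 10 were tested, had their lowest centred level on the 2-week vehicle arrays. This level was 0.17 and 0.14 on the GW2580 arrays, -0.40 and -0.14 on the 2-week vehicle arrays, and 0.24 and 0.00 on the 1-week vehicle arrays. The log2 of their summed linear level was 14.42 and 14.40 with GW2580, 14.34 and 14.43 with vehicle at 2 weeks, and 14.73 and 14.67 with vehicle at 1 week. By the summed level, replicate 2 of the 2-week vehicle group lay above both GW2580 arrays. At 2 weeks against 1 week with vehicle all 6 had lower means (median -0.28), as did 47.1% of all genes tested. Csn3, which encodes kappa-casein, fell by 0.95 (SE 0.18). With GW2580 against vehicle at 2 weeks 4 of 6 had higher means (median 0.39) and none passed with limma, 2 being higher at an unadjusted p under 0.05. Over all genes tested 41.7% had higher means, and 5.36% were higher at that level. Krt19 had the largest difference of the 6, 0.94 (SE 0.32). Krt8 lay between 13.52 and 13.82 on all arrays and Epcam between 6.85 and 7.31, while Cdh1, Elf5, Cldn4 and Cldn7 were below the filter. The part of these markers in the result was not tested.

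The 10 macrophage and monocyte markers lay at -0.22 and 0.14 on the GW2580 arrays, -0.11 and 0.12 on the 2-week vehicle arrays, and 0.04 and 0.04 on the 1-week arrays. At 2 weeks against 1 week with vehicle, 7 of the 10 had lower means and 3 higher ones (median -0.13), against 47.1% and 52.9% of all genes tested. Only Ptprc, the gene of the leukocyte antigen CD45, passed, with a fall of 0.61 (SE 0.13). Cd68 had the largest difference upward, 0.98, and did not pass. Neutrophil markers (4 of 6 tested) lay at -0.82 and 0.52 on the GW2580 arrays, 0.24 and 0.64 on the 2-week vehicle arrays, and -0.48 and -0.10 on the 1-week arrays. Lung epithelium markers (7 of 7) lay at -0.07 and -0.79 with GW2580, 0.26 and 0.18 with vehicle at 2 weeks, and 0.23 and 0.19 with vehicle at 1 week. At 2 weeks against 1 week with vehicle 6 of the 7 had higher means (median 0.62), as did 52.9% of all genes tested. Sftpd, for surfactant protein D, rose by 0.89 (SE 0.16), while Scgb1a1, a club cell gene, differed by -3.16 (SE 1.02) and did not pass. With GW2580 against vehicle at 2 weeks 6 of the 7 had lower means (median -0.69), as did 58.3% of all genes tested. The 2 surfactant genes Sftpa1, at -1.78 (SE 0.27), and Sftpd, at -1.12 (SE 0.16), passed, where 0.298% of all genes tested were called lower. The part of lung epithelium in the values of the mitotic genes was not tested. Pecam1, Tek and Vwf, which mark endothelium, and the lymphocyte markers Cd79b and Ms4a1 were below the filter. Over the tested markers, the centred level on the 6 arrays lay between -0.26 and 0.16 for endothelium (4 markers), -0.11 and 0.10 for lymphocytes (6 markers) and -0.10 and 0.26 for erythroid cells and platelets (3 markers). Single endothelial markers differed more, in opposite directions. At 2 weeks against 1 week with vehicle, Plvap differed by -1.20 and Tie1 by 0.86. With GW2580 against vehicle at 2 weeks, Plvap differed by 1.54 and Tie1 by -0.52. No endothelial marker passed in these 2 comparisons. The gap between the 3' and 5' control probe sets of beta-actin, a sign of RNA quality, was 1.20 log2 units on the second 2-week vehicle array and 0.38 to 0.50 elsewhere, and that of GAPDH was 0.92 on this array and -0.13 to -0.10 elsewhere. Without that array the median difference of the 40 genes at 2 weeks against 1 week was -0.96. Without replicate 1 of the same group it was -0.84.

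**Figure D5:**
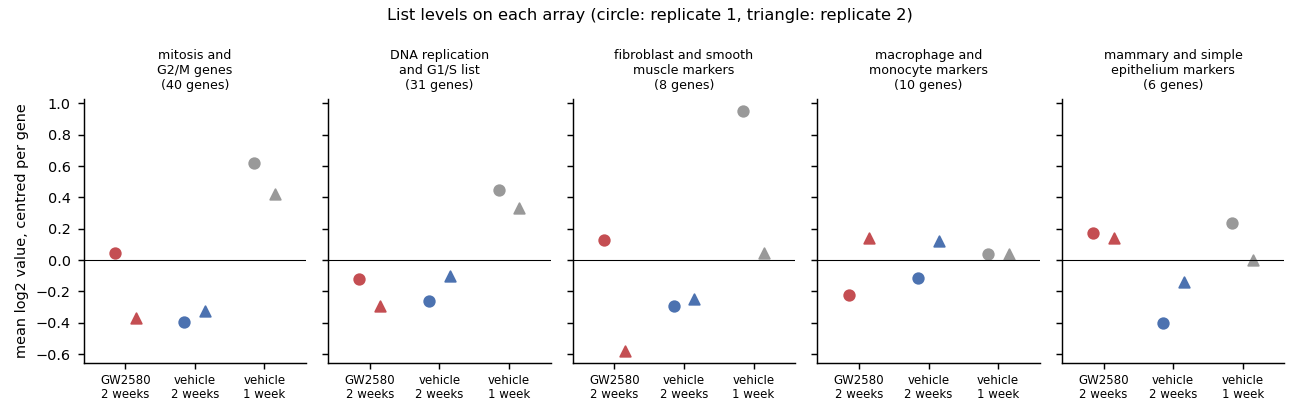
Mean log2 value of 5 gene lists on each array, each gene centred on its mean over the 6 arrays, with groups along the horizontal axis, circles for replicate 1 and triangles for replicate 2. The mitotic genes are highest on the 1-week vehicle arrays (0.62 and 0.42), as are the replication genes, and the fibroblast markers are high on replicate 1 of the GW2580 and 1-week groups.

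The other genes of mitosis were read from lists of further kinetochore, cohesin, condensin, APC/C, spindle and centriole genes. At 2 weeks against 1 week in vehicle mice, 19 of 31 other spindle and midbody genes fell, 1 rose and 11 did not pass (median -0.73). Kif18b, a kinesin gene, fell by 0.86 (SE 0.14). Melk, a kinase gene of proliferating cells, fell by 0.93 (SE 0.15). Cep55, for a midbody protein of abscission, fell by 1.07 (SE 0.18). The exception was Psrc1, for a microtubule-associated protein, which rose by 0.77 (SE 0.18). Of 29 other kinetochore and checkpoint genes 7 fell, 1 rose and 21 did not pass (median -0.43). Cenpi, for a subunit of the inner kinetochore, fell by 0.89 (SE 0.14). Spdl1, for a kinetochore recruiter of dynein, fell by 0.83 (SE 0.13). Ska2, for a subunit of the SKA complex, fell by 0.78 (SE 0.14). Cenpt, for an inner kinetochore subunit that binds the NDC80 complex, rose by 0.80 (SE 0.16): it read 9.93 and 10.27 on the GW2580 arrays, 11.00 and 11.10 on the 2-week vehicle arrays, and 10.14 and 10.37 on the 1-week arrays.

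Of 15 cohesin, separase and centromere protection genes 5 fell and 10 did not pass (median -0.24). Espl1, which encodes separase, fell by 1.01 (SE 0.14). Sgo2a, for a shugoshin, fell by 0.72 (SE 0.13). Cdca5, for sororin, which stabilises cohesin, fell by 0.79 (SE 0.15). None of the cohesin subunit and regulator genes Rad21, Smc1a, Smc3, Stag1, Stag2, Pds5a, Pds5b and Wapl passed. Of 8 condensin genes, Ncapg fell by 1.15 (SE 0.20) and Smc2 by 0.89 (SE 0.18), and 6 did not pass (median -0.59). Of 16 genes of the APC/C core and its regulators only Fbxo5, which encodes the inhibitor EMI1, fell, by 0.97 (SE 0.19); the 13 genes of core subunits differed by -0.36 to 0.30 and none passed (list median -0.07). Of 13 centriole genes Tubg1, for gamma-tubulin, fell by 0.60 (SE 0.13) (median -0.23). None of 15 genes of mitotic entry control and phosphatases passed with limma (3 higher and 4 lower at an unadjusted p under 0.05, median -0.07), the smallest p being those of Cks2 at -0.56 (SE 0.14, unadjusted p 0.00457) and Bora at -0.56 (SE 0.15, unadjusted p 0.00645). Cks2 encodes a subunit that binds cyclin-dependent kinases, and Bora an activator of Plk1 through Aurora A.

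Of the 20 genes of the DREAM, MuvB and E2F machinery, 3 fell, 1 rose and 16 did not pass (median -0.17). E2f7, for an atypical E2F repressor, fell by 1.14 (SE 0.17). Mybl2, which encodes B-MYB, fell by 0.69 (SE 0.16). E2f1, for an activator of G1/S genes, fell by 0.54 (SE 0.13). Tfdp2, for a dimerisation partner of E2F factors, rose by 0.79 (SE 0.16). Among 11 brake and quiescence genes of 16 listed, Ccng2, for cyclin G2, rose by 0.87 (SE 0.21) and 10 did not pass (median 0.09). Cdkn1a, for the inhibitor p21, differed by 0.10 (SE 0.14) and Cdkn1b, for p27, by 0.37 (SE 0.18). Of the 31 tested genes of DNA replication and G1/S, 10 fell and 21 did not pass (median -0.51), and all 31 had lower means at 2 weeks. Cdc6, for a licensing factor of replication origins, fell by 1.42 (SE 0.17). Dscc1, for a clamp loader subunit of sister cohesion, fell by 0.97 (SE 0.14). Mcm10, for a factor of replication initiation, fell by 0.96 (SE 0.18). Summed over these 10 lists 48 of 189 genes fell and 4 rose at 2 weeks in the vehicle arrays. Over all genes tested 2.71% were called lower, 3.74% were called higher and 47.1% had lower means. The count of falls in the lists depended on single arrays.

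With GW2580 against vehicle at 2 weeks, no gene of the 10 lists passed with limma. At an unadjusted p under 0.05, 11 of the 189 genes tested were higher and 12 lower. Over all genes tested 5.36% were higher and 12.6% lower at that level. The medians were 0.19 for the other spindle and midbody genes, -0.01 for other kinetochore genes, -0.06 for the cohesin group and -0.04 for DNA replication and G1/S genes, of which 13 of 31 had higher means. The difference between these lists and the 40 mitotic genes was not tested. GW2580 at 2 weeks against vehicle at 1 week gave 2 calls: Dscc1 fell by 1.01 (SE 0.14) and Gadd45b, a stress-induced growth arrest gene, rose by 0.91 (SE 0.12). Gadd45b read 9.56 and 9.63 on the GW2580 arrays and 8.72 and 8.66 on the 1-week vehicle arrays, with no overlap. The 31 replication genes were all lower than at 1 week (median -0.58), 29 of them at an unadjusted p under 0.05. Over all genes tested 54.2% had lower means in this comparison, and 10.4% were lower at that level.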

How the data were processed

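Levels are log2 expression values made by the authors with RMA, per the submitters' processing notes, which corrects the background, quantile-normalises across arrays and summarises per probe set; the sources used here name no version. After this step a change common to most genes is removed, arrays give no depth, and 2 arrays a group limit the precision. From the deposited table of 45101 probe sets, 64 controls were set aside; 34945 of the rest carried 1 gene symbol in the platform annotation. The brightest probe set of each of 18193 genes was kept, and the 13090 genes with a mean of at least 4.97, the 40th percentile, were tested. limma 3.58.1 in R 4.3.3 fitted 3 group means over 6 arrays (3 residual degrees of freedom, eBayes without trend), with Benjamini-Hochberg adjustment over all 13090 genes and calls under 0.05; all adjusted p-values are from this fit. The procedure was tested on simulated data. Exact permutation of 2 arrays against 2 cannot reach such a threshold and was not used. The genes and lists were chosen with earlier results of these data known. By a fixed rule, values on every array are given for a set of well-known genes and for the largest and smallest difference of each role, and up to 3 called genes in each direction, or the 2 with the smallest p, for each list in the comparison of 2 with 1 week. Further genes named were chosen after their values were seen. Promoters are from RefSeq, GRCm38.p6. Alternatives were the arrays fitted, scaling, filter, eBayes settings, probe set choice, a replicate block and leaving out each array.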

Additional observations from a re-analysis of the deposited data

How the results depend on the processing

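Scaling to a common 75th percentile, no filter, an intensity trend, robust eBayes, the mean of all probe sets and fitting only the arrays compared kept every count of calls among the 40 genes within 1.5 times its value and every median over them within the spread between replicates. With the second-brightest probe set, 16 of 35 genes fell at 2 weeks, and 25 of the genes in the other lists. Of these 35 genes, 21 were read on a second probe set, and the rest kept their only one. Aurka, Bub1, Nusap1, Spc25 and Ttk left this test because their second probe set was below the filter. Leaving out 1 array gave 0 to 34 falls among the 40 genes and 0 to 59 in the other lists, for which the alternatives were chosen after seeing the data. It gave medians of 0.0035 to 0.39 for GW2580 against vehicle at 2 weeks, and for GW2580 against 1 week 0 to 11 calls and medians of -0.88 to -0.51. Replicate numbers are shared by the groups. Gaps between replicates correlated across genes at 0.29 between the GW2580 and 1-week vehicle groups. The correlation was 0.01 between the GW2580 and 2-week vehicle groups and 0.00 between the vehicle groups. The numbers were not taken as pairs, and an effect shared by the replicates of the GW2580 and 1-week groups was not tested. With a replicate block 36 genes fell at 2 weeks, 2 were called for GW2580 against 1 week and 0 for GW2580 against vehicle at 2 weeks. Counting only the 250 bases before the start, 37.8% of the promoters of these genes held a CHR; with TTTGAA alone the share was 75.7% in the whole window and 35.1% in those 250 bases. All sign changes among the 40 genes were in GW2580 against vehicle at 2 weeks, where none was called. With the mean of all probe sets 8 genes in place of 2 had lower means, the 6 sign changes being Bub1 (-0.0075), Bub1b (-0.0280), Cdc25c (-0.0064), Cenpa (-0.0326), Foxm1 (-0.0402) and Racgap1 (-0.0104), and with the second probe set 7 of 35 had lower means, the sign changes being Cdc25c (-0.0436), Cenpe (-0.0141), Kif23 (-0.0825), Nek2 (-0.0660) and Racgap1 (-0.24). Among the 30 genes shown on every array, sign changes without 1 array were found in 15, whose differences ran from -0.24 to 0.59 for Anln, -0.13 to 0.33 for Bub1, -0.11 to 0.17 for Ccnb2, -0.0043 to 0.28 for Cdc20, -0.28 to 0.21 for Cdc25b, -0.11 to 0.12 for Cenpa, -0.24 to 0.53 for Cenpe, -0.39 to 0.66 for Cenpf, -0.0776 to 0.62 for Hmmr, -0.12 to 0.32 for Kif11, -0.0608 to 0.51 for Kif23, -0.34 to 0.36 for Kif4, -0.37 to 0.14 for Mad2l1, -0.33 to 0.47 for Mki67 and -0.0339 to 0.23 for Nek2. The cause of these changes was not tested beyond the arrays and probe sets named.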

Other observations

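A pair of regulators of the APC/C, chosen after their values were seen, had 1 low array within a group. Ube2s, which encodes the enzyme that extends ubiquitin chains on APC/C targets, read 12.49 and 12.47 on the GW2580 arrays, 12.32 and 11.20 on the 2-week vehicle arrays, and 12.90 and 12.80 on the 1-week vehicle arrays. Fzr1, for the APC/C activator CDH1, read 8.27 and 8.53 on the GW2580 arrays, 8.57 and 7.68 on the 2-week vehicle arrays, and 8.66 and 8.61 on the 1-week vehicle arrays. The low array in both was replicate 2 of the 2-week vehicle group, the one with the largest gap between the 3' and 5' probe sets of beta-actin. Its part in these values was not tested.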
